A study of Homo sapiens with 6 samples.

Results

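The acid interior of endosomes and lysosomes is set by a proton pump and by a set of ion channels and exchangers, and the 48 genes described here, of 17911 in the table, carry the names of these proteins. They were chosen by name: every row whose symbol starts with ATP6V or ATP6AP (25 rows, called V-ATPase genes here although ATP6V1FNB and ATP6AP1L are not known as pump subunits), the genes named CLCN, MCOLN, TPCN or SLC9A with a number, and TMEM175 and OSTM1 (23 genes of channels and exchangers). RNA was sequenced from HL-60, an established human promyelocytic leukaemia cell line. Of the 6 libraries, 3 are labelled control and 3 come from cells given 10 uM amiodarone for 24 h. Amiodarone is an antiarrhythmic drug and a cationic amphiphilic compound, a class of weak bases that collect in acidic organelles. The labels do not say whether the controls received a vehicle or whether the 3 libraries of a group came from separate cultures. The spread that the p-values rest on is that of these libraries alone and may be technical.

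The vacuolar proton pump, or V-ATPase, has a cytosolic V1 sector that splits ATP and a membrane V0 sector that carries protons. The sectors can come apart and join again, and several subunits are encoded by alternative genes with tissue-restricted use. CLC proteins of endosomes and lysosomes exchange chloride for protons, and the CLC protein of lysosomes needs the small subunit OSTM1. Mucolipins (MCOLN) and the channels TPC1 and TPC2 (TPCN1, TPCN2) release cations from the organelle, TMEM175 passes potassium ions and protons, and the SLC9A proteins exchange sodium or potassium ions for protons at the cell surface or on endosomes and the Golgi. Many genes of the lysosome carry the CLEAR sequence near their start, which TFEB and the related factors TFE3 and MITF bind.

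The values are not whole numbers and behave like RPKM, reads scaled by transcript length and by library size. From the steps between low values, each library holds roughly 16000000 to 18000000 reads or fragments. Values of 1 or more were found for 11129 to 11323 genes in a library. Among the genes of the promyelocyte list all 6 were present, with a summed value of 6837 to 6958 in controls and 2993 to 3058 after amiodarone, and MPO, the myeloperoxidase gene, was the most abundant (5962 ± 43.7 and 2613 ± 28.4, SD, n = 3). Of the 6, 5 fell and CD33 was not called (91.66 ± 2.12 and 95.55 ± 3.55). The summed value of 8 granulocyte and monocyte markers was 418 to 443 in controls and 1087 to 1132 after amiodarone. Most of it was S100A9 (240 ± 8.47 and 728 ± 23.6, SD, n = 3). All 6 tested markers rose, where 33.5% of all tested genes were called higher and 44.8% lower. Of the other 2 markers, CD14 stood at 0.347 ± 0.0907 and 0.793 ± 0.164 and CSF1R at 1.09 ± 0.165 and 0.557 ± 0.0551. Of 5 markers of other cell types in the table, 4 had a mean under 1 in controls, among them CD3E, COL1A1 and EPCAM, and the adhesion gene PECAM1 made up most of the sum of 14.83 to 16.99. The part of this shift in myeloid markers in the results below was not tested. In bulk RNA, fewer cells of a type and less RNA per cell cannot be told apart.

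Of the 48 genes, 38 reached a value of 1 in at least 3 of the 6 libraries and were tested, 21 of the 25 V-ATPase genes and 17 of the 23 others. None of the 38 had reached 1 only through the libraries of a single group. Those nearest the limit were ATP6V1FNB, with 0.75 to 1.32, and CLCN2, with 0.79 to 2.28, on the inside, and ATP6V0D2, with 0.29 to 1.62, and SLC9A2, with 0.29 to 0.93, on the outside. After amiodarone 20 of the 38 rose and 8 fell (limma on log2 of value + 1, Benjamini-Hochberg adjusted p under 0.05 over 11445 genes). Of all tested genes 78.3% were called, 33.5% as higher and 44.8% as lower, so 28 called of 38 is near the background. No overlap between the groups was seen in 26 of the 38, and in 79.3% of all tested genes. The median log2 fold change was 0.14 over the 38 genes and -0.06 over all tested genes. The balance of directions depended on the scaling. The split was 15 higher and 14 lower with libraries scaled to equal sums, and 22 higher and 4 lower with scaling by the median of ratios. Higher calls were thus 51.7% and 84.6% of the calls among these genes, against 71.4% with values as deposited. Over all tested genes they were 34.4% and 47.0% of the calls, against 42.8% with values as deposited. Of the 38 tested genes, 10 were called and differed by at least 1.5-fold in the ratio of group means. This is near the background, as 28.5% of all tested genes were called and past this fold. Of these 10, 8 were channel and exchanger genes.

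**Figure D1:**
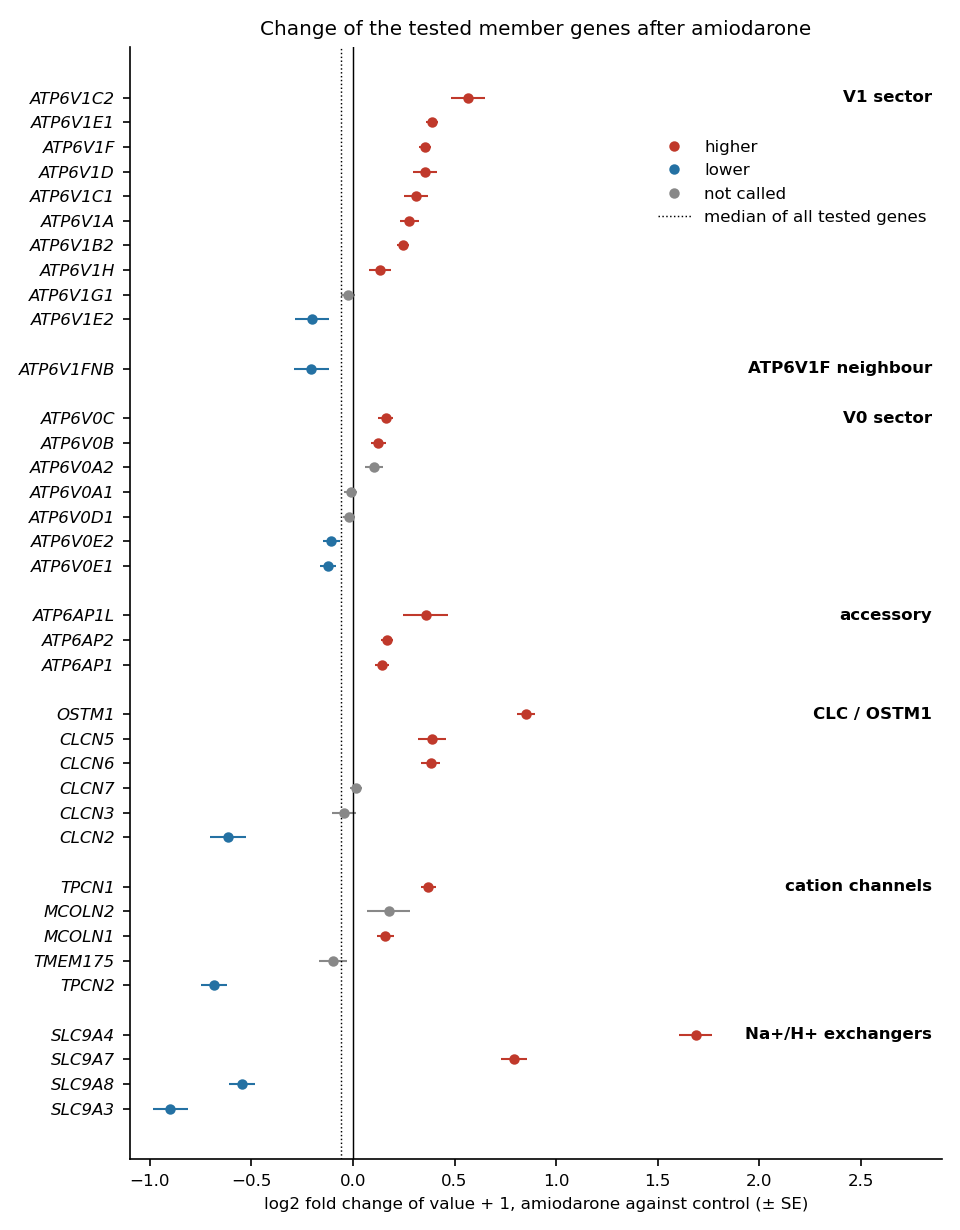
Log2 fold change of value + 1 (x axis, amiodarone against control, ± SE) of 36 of the 38 tested genes (y axis), grouped by role and coloured by the limma call; the dotted line is the median of all tested genes. V1 genes sit mostly between 0.13 and 0.57 and V0 genes between -0.12 and 0.16, while channels and exchangers spread from -0.90 to 1.69.

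Most tested genes of the V1 sector were called higher. Of 10 tested, 8 rose and ATP6V1E2 fell, the median log2 fold change being 0.29. Of all tested genes 78.3% were called, 33.5% as higher and 44.8% as lower. With libraries scaled to equal sums 7 V1 genes rose and 2 fell, where 34.4% of all calls were higher. ATP6V1E1, which encodes the E subunit of the peripheral stalk, had 66.9, 69.0 and 67.4 in the 3 controls and 87.7, 88.0 and 91.5 after amiodarone. Every treated library lay above every control, and the log2 fold change was 0.39 with an SE of 0.03 (limma, adjusted p = 2.62e-07). ATP6V1F, for the F subunit of the central stalk, had 193.9, 188.6 and 190.8 in controls and 254.8, 243.4 and 236.7 in treated cells, again without overlap (log2 fold change 0.36, SE 0.03, limma, adjusted p = 6.99e-07). Of its exonic bases 23.7% lie opposite KCP, whose own value was 0.343 ± 0.0971 in controls and 0.587 ± 0.0981 after amiodarone. ATP6V1B2, the B subunit that helps form the ATP-splitting head, rose from 68.9, 68.4 and 65.6 to 79.0, 80.2 and 82.0 (log2 fold change 0.25, SE 0.03, limma, adjusted p = 1.52e-05).

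The catalytic A subunit gene itself, ATP6V1A, stood at 9.44, 9.49 and 9.64 in controls and 11.5, 11.5 and 12.4 after amiodarone, a ratio of means of 1.24. ATP6V1D, a central stalk subunit, rose from 5.55, 6.18 and 5.95 to 7.39, 7.66 and 8.37 (log2 fold change 0.35, SE 0.06, limma, adjusted p = 2.13e-04). The 2 genes for the C subunit, which clamps the head to the membrane sector, rose together. ATP6V1C1 went from 5.30, 5.08 and 4.85 to 6.29, 7.01 and 6.31, with a log2 fold change of 0.31 (SE 0.06, limma, adjusted p = 4.93e-04). ATP6V1C2, the less abundant form, went from 1.72, 1.74 and 1.54 to 2.89, 2.59 and 3.41, the largest change of a V1 gene (log2 fold change 0.57, SE 0.08, limma, adjusted p = 7.31e-05). ATP6V1C2 thus made up 24.1% to 25.5% of the summed C subunit value in controls and 27.0% to 35.1% after amiodarone. In ATP6V1C2, 29.7% of the exonic bases lie opposite PDIA6, an abundant gene with 271 ± 2.81 in controls and 208 ± 3.44 after amiodarone, and reads of the opposite strand could count here if counting ignored strand.

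The alternative E subunit gene ATP6V1E2 had 3.12, 3.07 and 4.03 in controls and 2.94, 2.78 and 2.74 after amiodarone. It was called lower (log2 fold change -0.20, SE 0.08, limma, adjusted p = 0.0467), but not without control replicate 3 (-0.10) or any 1 amiodarone library (-0.18 to -0.22). Its share of the summed E subunit value was 4.26% to 5.64% in controls and 2.91% to 3.24% in treated cells. ATP6V1H, a regulatory subunit, had 13.86 to 15.62 in controls and 15.02 to 16.72 after amiodarone, so its groups overlapped. Its call ended without control replicate 2 or 3 and without amiodarone replicate 1 or 2 (log2 fold change 0.10 to 0.12, against 0.13 with all libraries), and also with equal sums (0.05), without a filter and without the variance trend. ATP6V1G1, a stalk subunit, had 78.8 to 84.0 in controls and 77.0 to 82.2 in treated cells and was not called (log2 fold change -0.02, SE 0.03), but was called lower with equal sums (-0.11) and had the opposite sign with the median of ratios (0.015). Reads of ATP6V1E1 and ATP6V1G1 may be shared with annotated pseudogenes, 1 and 5 of which carry their names in GENCODE 29. The same holds for ATP6V0E1 with 4, SLC9A3 with 3, and SLC9A7 and CLCN3 with 1 each. ATP6V1FNB, a neighbour of ATP6V1F on chromosome 7 that is no known pump subunit, had 1.02, 1.32 and 1.20 in controls and 0.88, 1.05 and 0.75 after amiodarone. Its log2 fold change was -0.20 (SE 0.09, limma, adjusted p = 0.0495), and the call ended without control replicate 2 or 3 or amiodarone replicate 1 or 3 (-0.15 to -0.20).

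Genes of the V0 sector were divided. Of 7 tested under the name rule, which leaves out the a subunit gene TCIRG1 (called higher, below), 2 rose and 2 fell. Of all tested genes 33.5% were called higher and 44.8% lower. For the other 3 V0 genes no call was made, and the median log2 fold change of the 7 was -0.01. With libraries scaled to equal sums 4 fell and the calls of ATP6V0C and ATP6V0B ended (log2 fold changes 0.07 and 0.04), whereas scaling by the median of ratios left ATP6V0C, ATP6V0B and ATP6V0A2 called higher and ended both lower calls. The proton-carrying ring is built from the products of ATP6V0C and ATP6V0B. ATP6V0C had 239.8, 252.4 and 247.7 in controls and 287.0, 281.3 and 259.8 after amiodarone, a ratio of 1.12 without overlap. In this gene 57.5% of the exonic bases are shared with the annotated gene AC093525.2 on the same strand, and 4 annotated pseudogenes carry its name. ATP6V0B had 118.3, 118.1 and 110.0 in controls and 131.6, 125.9 and 120.7 in treated cells, a ratio of 1.09. The e subunit genes were lower. ATP6V0E1 had 123.9, 122.6 and 113.5 in controls and 107.7, 107.3 and 115.3 after amiodarone, and its groups overlapped (log2 fold change -0.12, SE 0.04, limma, adjusted p = 0.0136). ATP6V0E2 had 12.4, 12.5 and 12.6 against 11.2, 12.1 and 11.3 (log2 fold change -0.11, SE 0.04, limma, adjusted p = 0.0437). The call of ATP6V0E1 ended without control replicate 1 or 2 or amiodarone replicate 2 (-0.10 to -0.11), and that of ATP6V0E2 without any 1 control or amiodarone replicate 1 or 3 (-0.09 to -0.11).

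The a subunit anchors the pump and steers it to its organelle, and 3 of its 4 genes were expressed. ATP6V0A1 had 41.6, 40.2 and 40.6 in controls and 39.6, 39.8 and 42.1 after amiodarone (log2 fold change -0.01, SE 0.03, limma, adjusted p = 0.767), and was called lower with equal sums (-0.10). ATP6V0A2 had 9.87, 9.03 and 9.53 in controls and 10.1, 10.4 and 10.2 in treated cells, apart but not called (log2 fold change 0.10, SE 0.05, limma, adjusted p = 0.0594; called at 0.13 without control replicate 1). TCIRG1, the a3 gene of lysosomes and osteoclasts, is named outside the rule for the 48 genes. It made up 64.3% to 66.2% of the summed a subunit value in controls and 66.1% to 66.5% after amiodarone. TCIRG1 had 92.9 to 96.5 in controls and 98.8 to 102.0 in treated cells and was called higher without overlap (log2 fold change 0.07, SE 0.03). This change is smaller than the -0.08 by which equal sums moved the median of all tested genes. The share of ATP6V0A1 was 27.6% to 28.8% in controls and 26.6% to 27.3% in treated cells. ATP6V0A4, the kidney form, was listed at 0.04 or less in each library. ATP6V0D1, for the d subunit that links the sectors, had 50.5 to 53.6 in controls and 50.4 to 51.6 after amiodarone and was not called (log2 fold change -0.02, SE 0.03), except with equal sums, where it was lower (-0.11). Its alternative ATP6V0D2, known from osteoclasts and macrophages, stood at 0.29, 0.30 and 0.42 in controls and 1.62, 0.95 and 0.94 in treated cells. It was under the limit for the test, and a fit without that limit gave a log2 fold change of 0.69 (SE 0.12, limma, adjusted p = 0.00203). At the estimated depth these means stand for about 14.8 and 46.6 reads, and ATP6V0D2 reached 1.82% to 3.04% of the summed d subunit value after amiodarone. Of its exonic bases 16.7% lie opposite the annotated gene AC023194.3.

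The accessory subunits were higher. ATP6AP1, which takes part in assembly of the pump, had 98.3 to 107.6 in controls and 111.7 to 116.0 after amiodarone (ratio 1.11). ATP6AP2, also known as the prorenin receptor, had 41.4 to 41.7 in controls and 45.7 to 47.4 in treated cells (ratio 1.13), and neither gene overlapped between groups. The call of ATP6AP1 ended with libraries scaled to equal sums (log2 fold change 0.05). ATP6AP1L, a gene named for its likeness to ATP6AP1, had 1.40, 1.07 and 1.10 in controls and 2.07, 2.07 and 1.33 after amiodarone. Its groups overlapped, and its call (log2 fold change 0.36, SE 0.11, limma, adjusted p = 0.0124) ended without amiodarone replicate 1 or 2 (0.29 each).

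Within the pump, control levels per length ranged widely. Of the genes that each supply the main form of a subunit, ATP6V0C was the highest at 247 ± 6.38 and ATP6V1C1 the lowest at 5.08 ± 0.225 (SD, n = 3), with ATP6V1D at 5.89 ± 0.319 and ATP6V1A at 9.52 ± 0.104. ATP6V1F, at 191 ± 2.68, was far above the other V1 genes, of which ATP6V1G1, ATP6V1E1 and ATP6V1B2 lay between 65.6 and 84.0. ATP6V1D, ATP6V1C1 and ATP6V1A, all at the low end of this order, were among the genes that rose, as were ATP6V1F and ATP6V0C at the high end. The B and G subunits came almost wholly from ATP6V1B2 and ATP6V1G1, since ATP6V1B1 and ATP6V1G2 supplied at most 0.05% and 0.99% of their subunit's summed value.

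**Figure D2:**
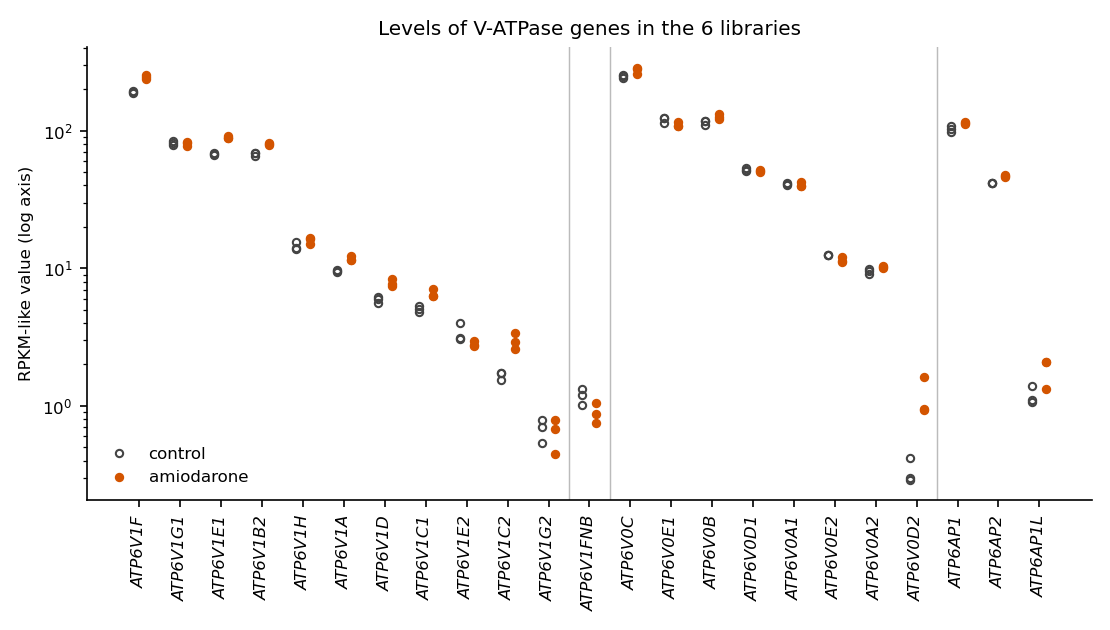
RPKM-like value (log axis) of the 23 V-ATPase genes with a value above 0 in every library, with 3 control (open) and 3 amiodarone points per gene and vertical lines between sectors. Levels run from below 1 (ATP6V0D2, ATP6V1G2) to above 200 (ATP6V0C), and the shift between groups is small beside this range.

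In the chloride exchanger group OSTM1 rose and its partner gene CLCN7 was not called. OSTM1 had 11.3, 10.7 and 11.8 in controls and 20.3, 21.4 and 21.7 after amiodarone, with all treated libraries far above the controls (ratio 1.88, log2 fold change 0.85, SE 0.05, limma, adjusted p = 2.30e-08). In GRCh38 (GENCODE 29) it spans 108041409 to 108165854 of chromosome 6, minus strand, with no exonic overlap with another gene. CLCN7, the lysosomal chloride-proton exchanger that needs OSTM1, had 65.8, 66.6 and 66.8 in controls and 68.8, 67.5 and 65.1 after amiodarone (log2 fold change 0.02, SE 0.03), and was called lower, at -0.07, with libraries scaled to equal sums. The ratio of OSTM1 to CLCN7 within a library went from 0.161 to 0.177 in controls to 0.295 to 0.333 in treated cells. The groups were apart, but the pair was chosen after its values were seen, so this is a description without a test.

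Of the other CLC genes, the endosomal exchangers CLCN5 and CLCN6 rose. CLCN5, mutated in Dent disease, had 1.49, 1.45 and 1.35 in controls and 2.03, 2.17 and 2.35 after amiodarone (ratio 1.53, log2 fold change 0.39, SE 0.07, limma, adjusted p = 3.27e-04). CLCN6, a late endosomal exchanger, had 9.25, 9.11 and 9.85 in controls and 12.1, 12.7 and 12.9 in treated cells (log2 fold change 0.38, SE 0.05, limma, adjusted p = 1.77e-05). Neither overlapped between groups. CLCN3, another endosomal exchanger, had 5.51 to 6.38 in controls and 5.62 to 5.88 after amiodarone and was not called (log2 fold change -0.05, SE 0.06). CLCN2, a chloride channel of the cell surface, fell from 2.28, 1.93 and 2.05 to 0.79, 1.14 and 1.13 (log2 fold change -0.62, SE 0.09, limma, adjusted p = 6.24e-05). Exons of CLCN2 lie opposite FAM131A over 24.7% of their bases, a gene with values of 0.05 ± 0.0361 in controls and 0.02 ± 0.0173 after amiodarone.

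The organelle cation channels went apart. TPCN1, whose channel TPC1 lies on endosomes, had 28.1, 26.5 and 27.1 in controls and 36.8, 35.4 and 34.2 after amiodarone (log2 fold change 0.37, SE 0.04, limma, adjusted p = 4.08e-06). TPCN2, whose channel TPC2 lies on late endosomes and lysosomes, fell from 9.35, 10.1 and 10.5 to 5.32, 5.97 and 6.28 (ratio 0.586, log2 fold change -0.68, SE 0.06, limma, adjusted p = 2.14e-06). Both genes were without overlap between groups, and both kept their call and direction in each alternative fit. TPCN1 lies on chromosome 12 at 113221050 to 113298585 on the plus strand, and TPCN2 on chromosome 11 at 69048897 to 69162440 on the plus strand (GENCODE 29, GRCh38). The ratio of TPCN1 to TPCN2 was 2.57 to 3.0 in controls and 5.45 to 6.92 after amiodarone, a pair chosen after its values were seen and given without a test. Mucolipin 1, a lysosomal calcium and iron channel, is encoded by MCOLN1, with 17.02 to 18.21 in controls and 19.2 to 20.4 after amiodarone. It was called higher without overlap (log2 fold change 0.16, SE 0.04, limma, adjusted p = 0.0047), and the call ended with libraries scaled to equal sums (0.07). MCOLN2 had 2.22, 2.07 and 1.74 in controls and 2.6, 2.8 and 1.85 in treated cells, and was called only without amiodarone replicate 3 (0.30, against 0.18 with all libraries). MCOLN3 stayed between 0.26 and 0.46 and was not tested. TMEM175, a lysosomal potassium and proton channel gene, had 8.96 to 10.8 in controls and 8.50 to 9.69 after amiodarone. It was not called at a log2 fold change of -0.10 (SE 0.07), and was called at -0.17 without control replicate 2 and at -0.18 with equal sums.

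**Figure D3:**
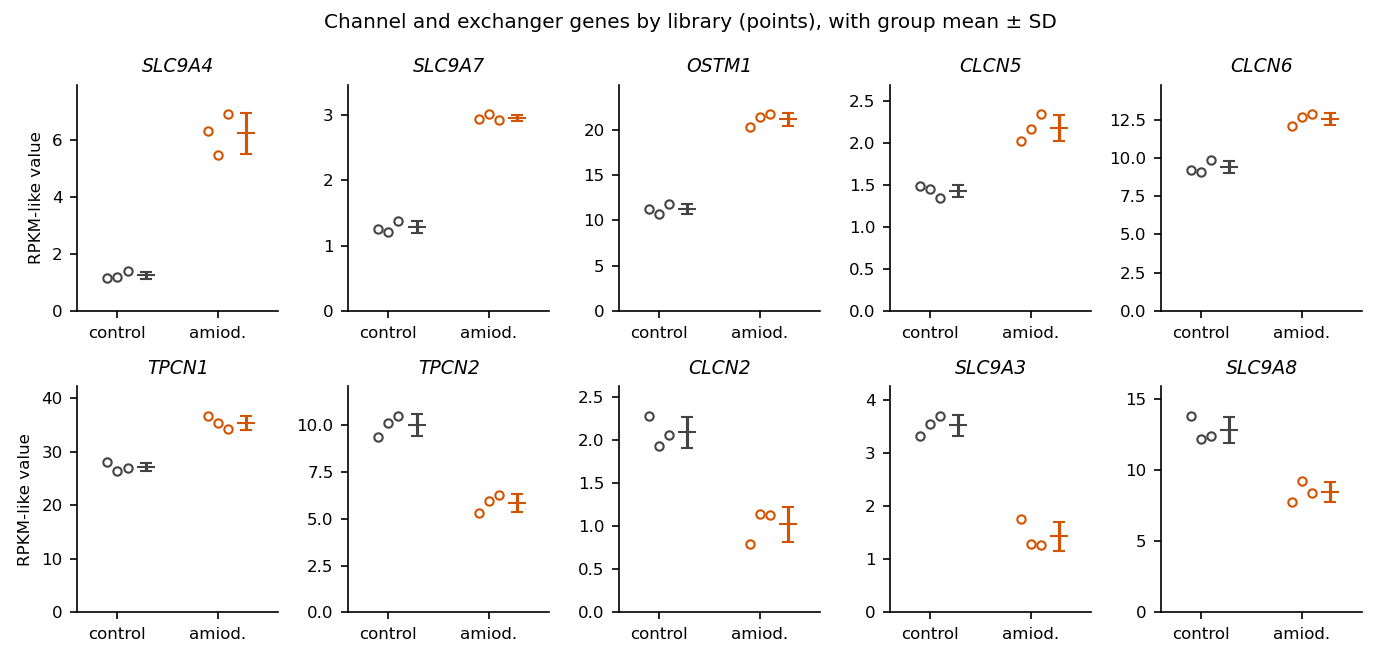
RPKM-like value (y axis, from 0) of 10 channel and exchanger genes in the 3 control and 3 amiodarone libraries (open points), with group mean ± SD beside them. In each of the 10 panels the groups do not overlap: SLC9A4, SLC9A7, OSTM1, CLCN5, CLCN6 and TPCN1 are higher and TPCN2, CLCN2, SLC9A3 and SLC9A8 lower.

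Sodium-proton exchangers held the largest changes of the 38 tested genes in both directions. SLC9A4, which encodes NHE4, an exchanger known from stomach and kidney epithelium, had 1.16, 1.19 and 1.39 in controls and 6.33, 5.50 and 6.93 after amiodarone. Each treated library was far above each control (ratio 5.02, log2 fold change 1.69, SE 0.08, limma, adjusted p = 9.71e-09), from about 92.9 to 422 reads at the estimated depth. The gene lies on chromosome 2 at 102473303 to 102533972 on the plus strand (GENCODE 29, GRCh38), with no exonic overlap. Its neighbour SLC9A2, for the surface exchanger NHE2, lies at 102619707 to 102711318 on the same strand and went from 0.42, 0.42 and 0.29 to 0.93, 0.83 and 0.73. It was under the limit for the test, and a fit without that limit gave 0.41 (SE 0.06, limma, adjusted p = 8.11e-04).

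SLC9A7, for the exchanger NHE7 of the trans-Golgi network and endosomes, had 1.26, 1.20 and 1.38 in controls and 2.93, 3.01 and 2.92 after amiodarone. The groups were far apart (ratio 2.31, log2 fold change 0.79, SE 0.06, limma, adjusted p = 6.56e-07). SLC9A9, for the endosomal exchanger NHE9, was low, with 0.20, 0.23 and 0.24 in controls and 0.67, 0.79 and 0.72 in treated cells, and gave 0.50 (SE 0.04, limma, adjusted p = 3.56e-05) in the fit without a limit. SLC9A8, for the Golgi exchanger NHE8, fell from 13.9, 12.2 and 12.4 to 7.78, 9.22 and 8.40 (ratio 0.661, log2 fold change -0.55, SE 0.06, limma, adjusted p = 1.48e-05).

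At the cell surface, SLC9A3, for the epithelial exchanger NHE3, fell from 3.31, 3.55 and 3.70 to 1.75, 1.29 and 1.26 (ratio 0.407, log2 fold change -0.90, SE 0.08, limma, adjusted p = 2.25e-06). In SLC9A3, 41.9% of the exonic bases are shared with the annotated gene PP7080 on the same strand, so which of them the reads came from is uncertain. Opposite EXOC3 lie 14.9% of the exonic bases of SLC9A3. SLC9A5 had 0.89, 0.87 and 0.76 in controls and 0.52, 0.49 and 0.47 after amiodarone, under the limit for the test. The fit without that limit gave -0.30 (SE 0.04, limma, adjusted p = 8.82e-04). CLCN1, CLCN4, ATP6V0A4 and ATP6V1B1 were listed at 0.12 or less in each library, and ATP6V1G2 at 0.45 to 0.79.

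**Figure D4:**
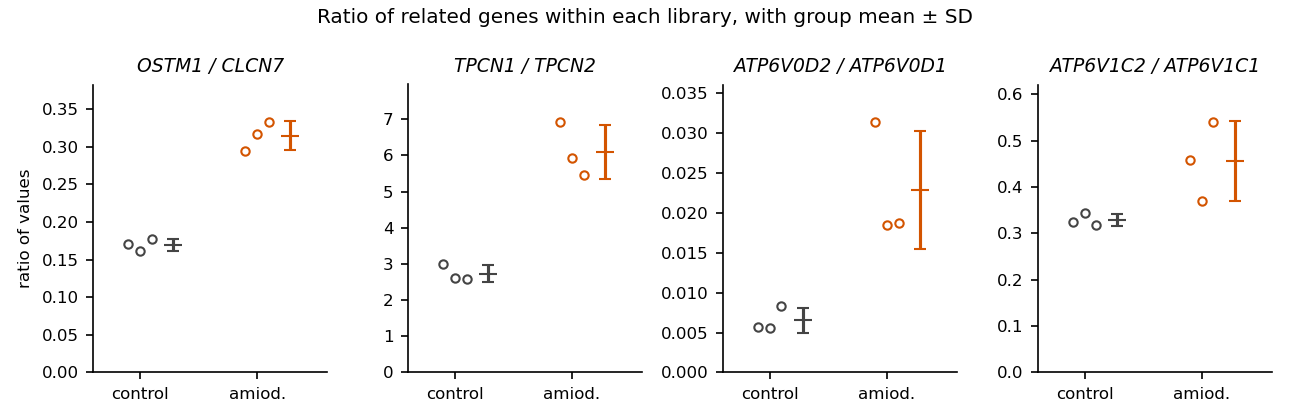
Ratio of the values of related genes within each library (y axis, from 0; open points), with group mean ± SD, for 3 control and 3 amiodarone libraries, in pairs chosen after their values were seen. The OSTM1 to CLCN7 ratio rises from 0.170 to 0.315 and the TPCN1 to TPCN2 ratio from 2.73 to 6.10 in the group means, and the d and C subunit ratios shift with wider spread after amiodarone.

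Genes that work with these proteins were taken from lists outside the name rule. Of 13 tested genes of V-ATPase assembly and regulation 8 rose and 3 fell, around a median of 0.10 on the log2 scale, where 33.5% of all tested genes were called higher and 44.8% lower. The 8 include TCIRG1, which is itself a subunit gene. The share called is near the 78.3% of all tested genes. DMXL2, part of the RAVE-like complex that rejoins the sectors, rose from 15.98, 14.98 and 14.94 to 32.0, 32.6 and 33.1 (log2 fold change 1.04, SE 0.04, limma, adjusted p = 1.22e-09). SNX10, a sorting nexin that binds the pump, had 15.4 to 16.7 in controls and 22.9 to 25.4 after amiodarone (log2 fold change 0.52). The assembly factor genes VMA21 (19.0 to 20.3 against 16.0 to 16.3) and CCDC115 (18.1 to 19.7 against 14.3 to 15.8) fell by 0.27 and 0.31 on the log2 scale. Of 21 tested genes of other endolysosomal ion and solute transport 9 rose and 7 fell, with a median of 0.09, which is near the share of all tested genes called. Of the 9, SLC11A1 and SLC30A4 passed the limit of 1 only through the treated libraries, where they were high. P2RX4, an ATP-gated cation channel of lysosomes and the cell surface, rose from 26.9 to 28.6 in controls to 50.8 to 53.0 (log2 fold change 0.89). The proton-activated chloride channel gene TMEM206 (now PACC1) rose by 0.54, the volume-regulated channel subunit gene LRRC8D by 0.80 and the peptide transporter gene SLC15A3 by 0.72 on the log2 scale. Other subunits of the LRRC8D channel, named here after their values were seen, went the other way. LRRC8A fell by 0.47 and LRRC8C by 0.71 on the log2 scale, both without overlap, and LRRC8B was not called (-0.11, SE 0.06).

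Among 11 tested partners of surface exchangers and cell pH 7 fell and 2 rose, with a median of -0.20, and here too the share called is near the 78.3% of all tested genes. CHP1, a calcineurin-like protein that binds surface sodium-proton exchangers, rose from 24.8 to 28.8 in controls to 42.1 to 44.6 after amiodarone (log2 fold change 0.66, SE 0.05, limma, adjusted p = 3.53e-07). The lactate and proton carrier gene SLC16A1 (22.8 to 23.5 against 11.4 to 12.6), its chaperone gene BSG (327.3 to 335.1 against 250.01 to 266.72) and the membrane linker gene EZR (39.3 to 40.9 against 26.7 to 27.5) fell. Of the factors that bind the CLEAR sequence, TFEB had 3.64 to 3.72 in controls and 6.75 to 7.37 in treated cells (log2 fold change 0.79). TFE3 had 21.9 to 23.4 and 36.6 to 40.9 (log2 fold change 0.75), and MITF, at 0.55 to 0.73 and 1.14 to 1.24, passed the limit only through the treated libraries. The related TFEC did not pass the test (log2 fold change 0.00, SE 0.07).

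The promoter windows were read for the letters of that sequence, since several of these genes are known to carry it. RefSeq windows from 250 bases before to 50 after the start (GRCh38.p14) were at hand for 36 of the 48 genes. The E-box CACGTG, which reads the same on both strands, was in 10 of the 36 (27.8%), against 8.77% of all 27305 genes with a window and 13.1% of those tested here. The longer GTCACGTG, on either strand, was in 7 (19.4%), against 2.93% and 5.48%. The same 8 letters followed by AC, a palindrome that contains both, were in MCOLN1, CLCN5 and ATP6V1G1 (8.33%), against 0.421% and 0.962%. These are matches of letters and not shown to be bound. The 80 bases before the start are printed below for these 3 genes, for CLCN6 and ATP6V0B, which rose, and for CLCN7, which was not called. Capitals mark CACGTG, with a GT before it and an AC after it where present.
MCOLN1, chr19:7522544-7522623, plus strand: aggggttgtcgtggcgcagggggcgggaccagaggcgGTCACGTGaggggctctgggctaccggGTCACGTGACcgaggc
CLCN5, chrX:50067508-50067587, plus strand: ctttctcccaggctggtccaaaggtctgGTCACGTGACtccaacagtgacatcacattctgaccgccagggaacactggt
ATP6V1G1, chr9:114587689-114587768, plus strand: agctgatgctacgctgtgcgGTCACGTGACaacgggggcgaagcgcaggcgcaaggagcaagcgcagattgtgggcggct
CLCN6, chr1:11806111-11806190, plus strand: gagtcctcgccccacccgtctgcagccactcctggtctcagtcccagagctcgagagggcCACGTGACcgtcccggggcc
CLCN7, chr16:1475029-1475108, minus strand: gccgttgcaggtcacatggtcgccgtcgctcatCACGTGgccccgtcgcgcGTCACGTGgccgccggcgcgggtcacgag
ATP6V0B, chr1:43974880-43974959, plus strand: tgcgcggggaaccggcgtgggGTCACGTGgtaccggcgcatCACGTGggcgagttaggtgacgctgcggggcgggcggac

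The window of MCOLN1, which was called higher, holds GTCACGTG and the full palindrome within these 80 bases. That of CLCN5 is of an internal start site of the gene, and its expression also rose. ATP6V1G1 carries the same 10 letters and was not called. CLCN7 and ATP6V0B each hold CACGTG 2 times in these bases. Among the 7 channel and exchanger genes that rose, 3 held CACGTG (MCOLN1, CLCN5 and CLCN6). SLC9A4, SLC9A7, OSTM1 and TPCN1, the others that rose, had no match in their windows, and neither had the 4 channel and exchanger genes called lower. CLCN7, which was not called, and CLCN4 and SLC9A5, both under the limit for the test, also held CACGTG. SLC9A5 was lower in the fit without that limit (log2 fold change -0.30). Of the V-ATPase genes, ATP6V0B (higher), ATP6V0D1 and ATP6V1G1 (not called) and ATP6V0E2 (lower) held CACGTG, of 16 with a window. Among the 13 V-ATPase genes that rose, 8 had a window and 1 of these held CACGTG (12.5%), near the 13.1% of tested genes. All 4 that were not called had a window and 2 held it, and 1 of the 4 that fell had a window. A window without these letters says nothing about sites elsewhere in a gene.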

How the data were processed

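The deposited table gives, per the file headers, a gene ID, symbol and Ensembl ID and 6 expression columns, 1 per library, with no unit named. Values were treated as RPKM, since the deposited numbers are not whole, sum to 534486 to 574483 and, in low genes, fall near steps set by transcript length (50.5% to 57.8% within 0.15 of a step, against a median of 27.4% to 30.0% over the steps tried). Tools listed in the submitters' processing notes are fastp 0.23.4, STAR 2.5.3a and featureCounts, with the build GRCh38.p12. For annotation, strand setting and reads that match several genes, the setting is not given in the sources used here.

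The design allowed for counts, and since the table holds a normalized unit, limma 3.58.1 (R 4.3.3, eBayes with trend) was run on log2(value + 1) over the 11445 genes that reached a value of 1 in 3 or more libraries, with values as deposited and Benjamini-Hochberg adjustment over all of them. This scale understates changes of low genes, and ratios are of group means. The procedure was tested on simulated data. Gene positions and exon overlaps come from GENCODE 29 and promoters from RefSeq. Full statistics are given for genes called with a ratio of at least 1.25 or at most 0.8, the 10 with the smallest adjusted p, and V-ATPase genes that share a subunit, and from each partner list up to 4 called genes by adjusted p. MCOLN1 and the low genes ATP6V0D2, SLC9A2, SLC9A5 and SLC9A9 were given them outside this rule, after their values were seen. The genes and lists were chosen with earlier results of these data known. The related gene pairs were chosen after their values were seen. Alternatives were another pseudocount, filter, scaling and variance model, a replicate block and leaving out each library. Values of a few genes on these lists are not reported here.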

Additional observations from a re-analysis of the deposited data

How the results depend on the processing

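All 28 called genes kept their direction of change in each fit that tested them. The call was also kept by 27 with a pseudocount of 0.1, 24 without a filter, all 20 that were tested at a minimum value of 5, 23 with equal sums, 24 with the median of ratios, 25 without the variance trend, 26 with the replicate block and 23 to 26 without any 1 library. The calls that ended in several fits were those of V-ATPase genes. Most of these had small changes, but the ratio of means was 1.53 for ATP6AP1L and 0.757 for ATP6V1FNB, both with values near the limit for the test. V-ATPase genes called lower numbered 4 with all settings as reported, 1 without a filter, 2 at a minimum value of 5, 7 with equal sums, 0 with the median of ratios (limma, and 0 at an unadjusted p under 0.05), 2 without the variance trend, 2 with the replicate block and 1 to 2 when a library was left out. Over all 48 genes, those called lower were 4 at a minimum value of 5, 14 with equal sums, 4 with the median of ratios and 5 to 6 without any 1 library. Channel and exchanger genes called lower were 2 at a minimum value of 5, where fewer were tested, and 7 with equal sums. The median log2 fold change of V-ATPase genes was 0.053 with equal sums and 0.18 with the median of ratios, which moved the median over all tested genes by -0.08 and 0.04, and 0.13 to 0.17 without any 1 library.

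Signs turned only in genes that were not called: CLCN7 with equal sums (-0.073) and without amiodarone replicate 1 (-0.002). With the median of ratios ATP6V0A1 was 0.027, ATP6V0D1 0.019 and ATP6V1G1 0.015. ATP6V0A1 was 0.003 without control replicate 1, 0.004 without amiodarone replicate 1 and 0.001 without amiodarone replicate 2. ATP6V0D1 was 0.004 without control replicate 2, and ATP6V1G1 0.004 without amiodarone replicate 1. Over all libraries left out 1 at a time, the highest or lowest opposite values were 0.038 for CLCN7, -0.039 for ATP6V0A1, -0.038 for ATP6V0D1 and -0.048 for ATP6V1G1. The cause was not tested. The deviations of same-numbered libraries from their group means correlated at -0.155, -0.018 and -0.023. Those of differently numbered libraries correlated at -0.097 to 0.114. With 3 libraries per group these values cannot show whether the replicate numbers pair the libraries. The replicate block ended 2 calls, of ATP6V0E2 and ATP6V1E2. Depth limits the genes under the limit for the test, such as ATP6V0D2 with about 14.8 reads in controls.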
